A study of Danio rerio with 10 samples.

Results

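The genes described here encode the mitochondrial carriers of zebrafish (Danio rerio), found by name among the genes counted in sorted pituitary cells. A gene was taken when its deposited name began with slc25a and a digit, ucp and a digit, mfrn, or was mpc1 or mpc2, and 52 of 14781 genes did. The rule uses names alone, though it was set with earlier results of these data known. Of the 52 names, 49 are current symbols in the RefSeq table of assembly GRCz12tu, and 3 are there as synonyms, with mpc2 listed as mpc2b, slc25a10 as slc25a10b and slc25a22 as slc25a55a.

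AMCA-positive and AMCA-negative cells were compared, with 5 libraries each, all from 12-month-old male fish of the TL strain. Every fish had been injected with 10 µl of the dipeptide dye β-Ala-Lys-Nε-AMCA at 4.6 mM and its pituitary removed 3 h later, so the AMCA-negative cells also come from dye-injected fish. The AMCA-positive cells took up the dye and are labelled pituicytes, the astroglia of the neurohypophysis; the AMCA-negative cells are whatever else was sorted without the dye and are labelled non-pituicytes. Pituitaries of 7 fish made a pool, 5 pools gave the 10 libraries, and the labels do not tie a library to its pool. Replicates 1 and 2 of each group were on plate 1 and replicates 3 to 5 on plate 2.

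Mitochondrial carriers move metabolites across the inner mitochondrial membrane, which is otherwise closed to most charged solutes. Most belong to the SLC25 family, in which a single fold of paired helices repeats and the cargo differs by member: ADP for ATP, phosphate, citrate, amino acids, iron, glutathione, acylcarnitine or nucleotides. Uncoupling proteins are members that can let protons or anions back across the membrane. The pyruvate carrier subunits mpc1 and mpc2 have another fold and are kept here because they do the same kind of work.

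Library totals lay between 5068078 and 5919478 counts in AMCA-positive cells and between 4250948 and 6068781 counts in AMCA-negative cells. AMCA-positive libraries held a count for 11308 to 11817 genes, AMCA-negative libraries for 7079 to 9056. The labels were checked against markers of the cell types a pituitary sort can hold. Of 13 astroglial markers tested, 10 were higher in AMCA-positive cells, and slc1a3a, a glial glutamate transporter, averaged 169 ± 49.2 CPM (counts scaled to library size; SD, n = 5) there and had no count in any AMCA-negative library. The same libraries also carried more leukocyte RNA (13 of 16 markers higher, 1.69 to 3.96% of counts in AMCA-positive libraries and 0.0496 to 0.213% in AMCA-negative ones) and more mural cell and fibroblast RNA (8 of 11 markers higher). Of endothelial markers 5 of 10 were higher, with 0.00818 to 0.0132% of counts in AMCA-positive libraries and 4.94e-05 to 0.00739% in AMCA-negative ones. Of endocrine markers 4 of 14 were higher, 0 lower, and 10 did not pass. pomca, among the higher, averaged 9901 ± 8311 CPM in AMCA-positive cells and 15.8 ± 18.8 CPM in AMCA-negative cells (SD, n = 5 each). Of those that did not pass, prl averaged 1585 ± 1047 CPM in AMCA-positive cells and 9868 ± 14348 CPM in AMCA-negative cells. Its AMCA-negative libraries read 17171, 31866, 277, 23.3 and 2.20 CPM, and its fitted log2 fold change was 1.46 ± 2.17 (SE). tshba averaged 638 ± 690 CPM in AMCA-positive cells and 2675 ± 4679 CPM in AMCA-negative cells. For fshb the values were 2698 ± 1627 CPM and 942 ± 827 CPM in that order, so means of uncalled endocrine markers lay on both sides. tshba and fshb are named after their values were seen. The summed endocrine share overlapped (1.24 to 3.84% in AMCA-positive libraries, 0.284 to 5.03% in AMCA-negative ones). Red cell RNA went the other way, with 14 of 14 markers lower and a summed share of 0.0294 to 0.0901% in AMCA-positive libraries and 13.2 to 25.0% in AMCA-negative ones. No red cell marker was at 0 throughout either group. In bulk libraries like these, fewer cells of a type and less RNA per cell cannot be told apart.

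Carriers were found in more of the AMCA-positive libraries. A count in all 5 libraries was present for 42 of the 52 carriers (80.8%) in AMCA-positive cells and for 23 (44.2%) in AMCA-negative cells, while over all genes the shares were 66.7% and 31.0% in the same order. Together the carriers took 1.17 ± 0.122% of all counts in AMCA-positive libraries and 0.678 ± 0.151% in AMCA-negative ones (SD, n = 5 each). slc25a5, an ADP/ATP carrier, supplied 69.0 ± 4.16% of these carrier counts in AMCA-positive cells and 55.1 ± 10.6% in AMCA-negative cells. Such shares depend on transcript length as well as on RNA number, so they do not rank one gene against another.

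Of the 42 carriers with enough counts to test, 5 were higher and 4 lower in AMCA-positive cells, and 33 did not pass edgeR's quasi-likelihood test at a Benjamini-Hochberg adjusted p of 0.05. The carriers that rose were slc25a25a, slc25a6, slc25a34, slc25a35 and slc25a15b, and those that fell were ucp3, slc25a37, slc25a39 and slc25a43. Among all 10468 genes tested, 16.2% were higher and 6.56% lower, and the carriers lay near that background in both directions. The groups did not overlap for 10 carriers, of which 7 had all AMCA-positive libraries above (18.7% over all genes) and 3 had them below (5.72%). The median log2 fold change was 0.45 over the carriers and 0.69 over all genes tested, and neither was stable. The carrier median was -0.44 with 10 CPM required in 5 libraries, -0.05 without the plate term and -0.54 on plate 1 alone, where the medians of all genes were 0.13, 0.20 and 0.29, and it was 0.19 without AMCA-negative replicate 3. Other settings raised it, to 0.72 without a filter, 0.70 with neighbouring wells as a block and 0.63 with limma-voom. The medians of all genes there were 0.83, 1.78 and 1.64. The count of higher carriers depended on 1 library, reaching 9 without AMCA-negative replicate 2. A gene at or near 0 in one group passed the filter on low counts only through the other group, so for such genes a difference follows from having been tested at all.

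**Figure D1:**
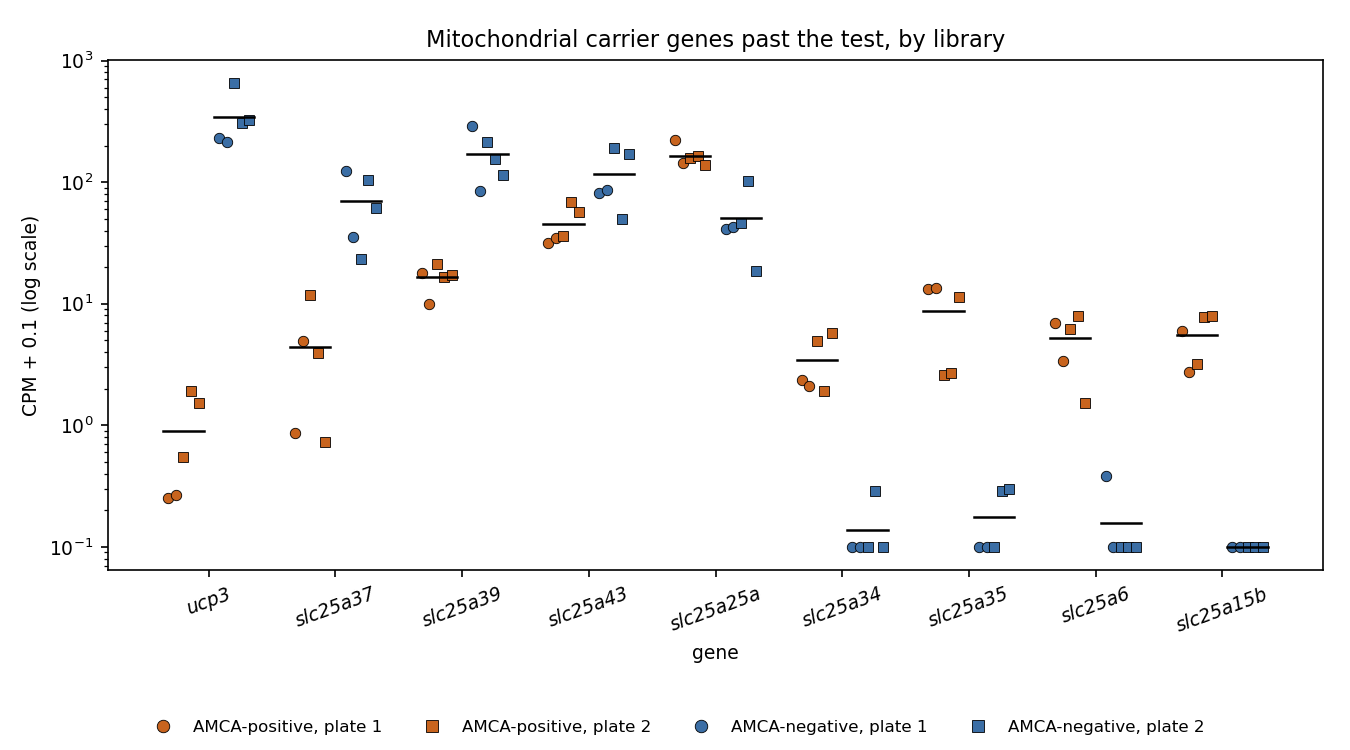
Level in CPM plus 0.1, on a log axis, of the 9 carriers past the test, in each of the 5 AMCA-positive (orange) and 5 AMCA-negative (blue) libraries; circles are plate 1, squares plate 2, and bars group means. ucp3, slc25a37 and slc25a39 do not overlap between the groups, slc25a43 does, and slc25a15b lies on the floor of the axis in all AMCA-negative libraries.

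Uncoupling proteins included the largest fitted change among the carriers tested, ucp3, and an abundant gene without a detectable one, ucp2. ucp3 codes for an uncoupling protein best known from skeletal muscle of mammals. Its levels in the AMCA-positive libraries, replicates 1 to 5, were 0.151, 0.165, 0.443, 1.83 and 1.42 CPM, against 229, 215, 652, 307 and 327 CPM in the AMCA-negative libraries. The groups lay far apart, with every AMCA-negative library far above the AMCA-positive range. Summed over libraries, ucp3 had 26 counts in AMCA-positive cells and 7722 in AMCA-negative cells. The fitted log2 fold change was -8.97 ± 0.63 (SE), with an edgeR adjusted p of 4.6e-06. Within plate 1 the log2 fold change was -10.44 (edgeR adjusted p = 0.0213), and within plate 2 it was -8.41 (edgeR adjusted p = 0.00168).

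ucp2, the relative found in many tissues including blood cells, was abundant in both groups. It had 877, 956, 640.3, 2095 and 683 CPM in the AMCA-positive libraries and 1153, 1323, 1198, 795 and 889.5 CPM in the AMCA-negative libraries. The ranges overlapped, and AMCA-positive replicate 4 stood above all others. The log2 fold change of -0.03 ± 0.33 did not pass (edgeR adjusted p = 0.972), and its sign turned under other scalings. Of the counts of ucp2 and ucp3 together, ucp3 therefore took 0.0797 ± 0.0779% in AMCA-positive cells and 24.1 ± 8.72% in AMCA-negative cells (SD, n = 5 each). The RefSeq table of GRCz12tu places ucp3 and ucp2 as neighbouring protein-coding genes, and the groups differed in the first and not detectably in the second.

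The other members of this group were low or even. slc25a14, a brain-expressed relative of the uncoupling proteins, averaged 30.5 ± 15.0 CPM in AMCA-positive cells and 21.2 ± 26.1 CPM in AMCA-negative cells (SD, n = 5 each; edgeR adjusted p = 0.543). ucp1, the thermogenic protein of mammalian brown fat, was too rare to test, with 43 counts in AMCA-positive cells and 2 in AMCA-negative cells. That is a ratio of 15.0 scaled for depth, with a 95% counting interval from 3.90 to 128. AMCA-positive replicate 4 supplied 31 of the 43 counts and replicate 5 had none, a spread that the interval leaves out. slc25a27 had 36 counts in AMCA-positive cells and none in AMCA-negative cells.

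Carriers that supply iron and glutathione to mitochondria held 2 of the other lower calls, among 4 tested (6.56% over all genes). slc25a37 is mitoferrin 1, which imports iron and which developing red cells of zebrafish need for haem. It had 0.757, 4.80, 11.7, 3.81 and 0.631 CPM in the AMCA-positive libraries and 124, 35.1, 23.3, 104 and 61.7 CPM in the AMCA-negative libraries. All AMCA-positive libraries lay below all AMCA-negative ones. AMCA-positive cells differed by -4.05 ± 1.00 (log2 fold change with SE), with an edgeR adjusted p of 0.0138. The value was of like size on plate 1 alone (-5.06, edgeR adjusted p = 0.127) and on plate 2 alone (-3.54, edgeR adjusted p = 0.0933), where the call was lost.

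slc25a28 is mitoferrin 2, the iron importer of other tissues. Its libraries read 35.4, 31.1, 64.3, 45.6 and 48.9 CPM in AMCA-positive cells and 79.7, 32.7, 72.0, 106 and 2.39 CPM in AMCA-negative cells, overlapping throughout. Its log2 fold change, -0.41 ± 0.76 (SE), did not pass (edgeR adjusted p = 0.772). The difference between the mitoferrins was also taken within each library, as the share of their joint counts that belongs to slc25a37. That share was 2.09, 13.4, 15.4, 7.72 and 1.27% in the AMCA-positive libraries, against 60.9, 51.8, 24.4, 49.4 and 96.3% in the AMCA-negative ones. Every AMCA-positive share was below every AMCA-negative one. The mean share was 48.6 percentage points lower in AMCA-positive cells, at 7.96 ± 6.39% against 56.6 ± 26.0% (SD, n = 5 each; exact permutation p = 0.00794, the smallest the 252 arrangements allow; 0.0437 adjusted over 11 pairs, two-sided). The adjusted value is under the threshold only because the slc25a6 and slc25a5 pair ties at the same smallest p.

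slc25a39, which takes up glutathione, a thiol needed for iron-sulphur proteins, was low in AMCA-positive cells. It had 17.9, 9.93, 21.0, 16.6 and 17.0 CPM in the AMCA-positive libraries and 289, 84.6, 212, 154 and 114 CPM in the AMCA-negative libraries. The groups did not overlap, and the AMCA-positive libraries were the more uniform. The fit gave -3.38 ± 0.46 (log2 fold change with SE) and an edgeR adjusted p of 0.000523, with -4.003 on plate 1 alone (edgeR adjusted p = 0.116) and -3.13 on plate 2 alone (edgeR adjusted p = 0.00706). Its close relative slc25a40 averaged 29.7 ± 13.3 CPM in AMCA-positive cells and 65.6 ± 48.9 CPM in AMCA-negative cells (SD, n = 5 each), and did not pass (log2 fold change -1.15 ± 0.76, edgeR adjusted p = 0.346). slc25a39 took 38.6 ± 18.9% of the pair's counts in AMCA-positive cells and 75.1 ± 13.6% in AMCA-negative cells, a difference that missed the adjusted threshold (exact permutation p = 0.0238, 0.0873 adjusted over 11 pairs).

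Red cell RNA moved with these 3 genes between the groups. The summed red cell share in AMCA-positive replicates 1 to 5 was 0.0333, 0.0338, 0.0901, 0.0294 and 0.0571%, and in AMCA-negative replicates 1 to 5 it was 15.8, 13.2, 25.0, 13.3 and 15.5%. alas2, the haem-synthesis enzyme of red cells, averaged 5.72 ± 4.81 CPM in AMCA-positive cells and 4088 ± 1159 CPM in AMCA-negative cells (SD, n = 5 each). The part of red cell RNA in the levels of ucp3, slc25a37 and slc25a39 was not tested. Among AMCA-negative libraries, replicate 3 had the highest red cell share and the highest ucp3, but the lowest slc25a37.

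**Figure D2:**
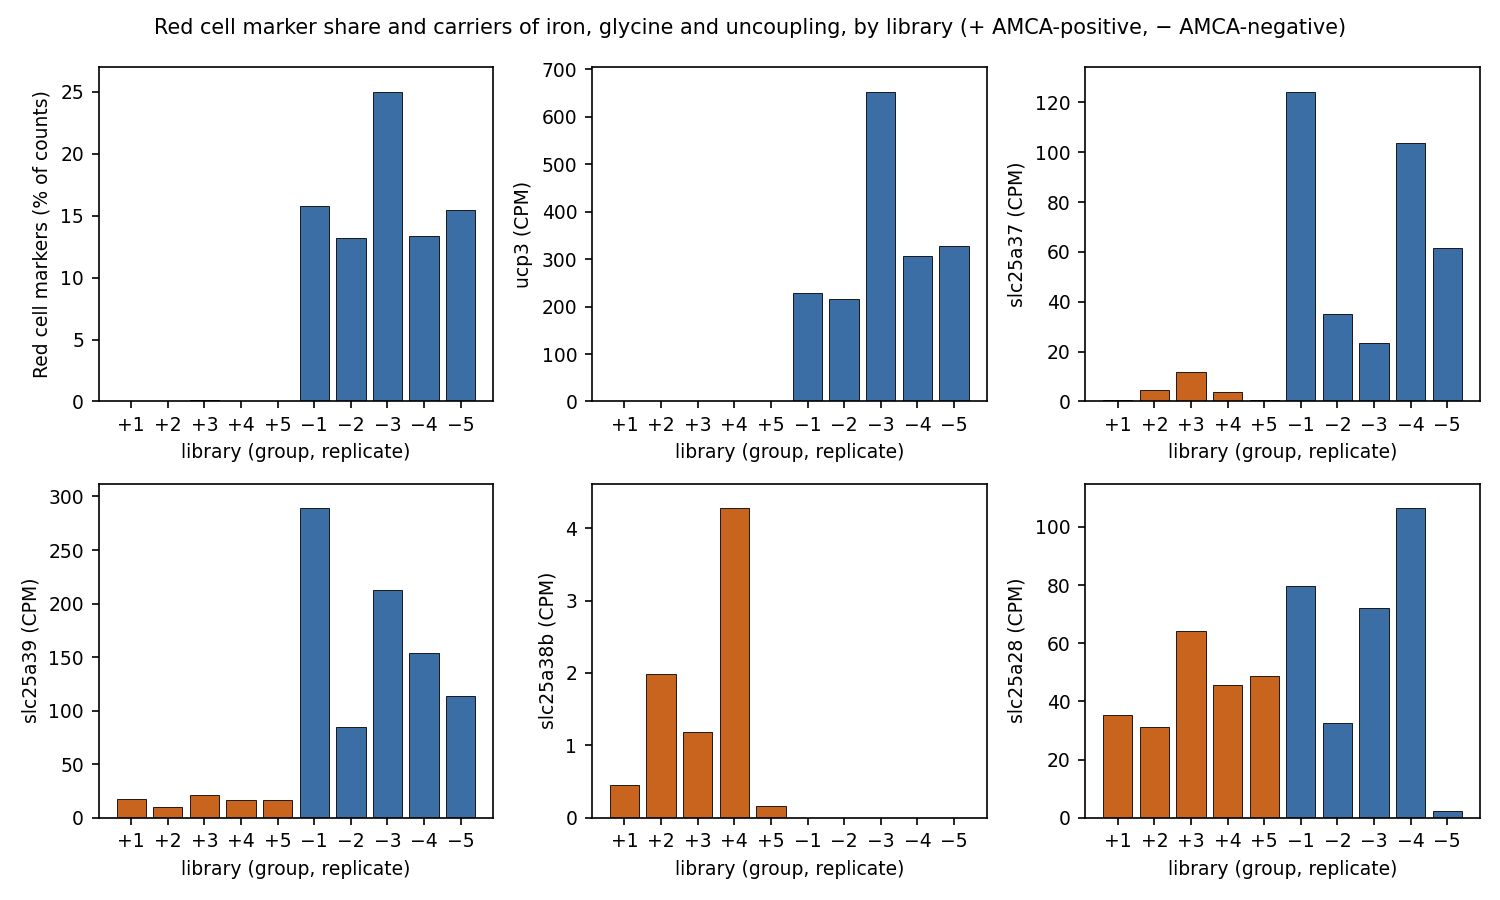
Bars, each 1 library, show the share of counts of the 14 red cell markers (%) and the levels (CPM) of ucp3, slc25a37, slc25a39, slc25a38b and slc25a28, with AMCA-positive libraries (+, orange) left of AMCA-negative ones (-, blue). Red cell share, ucp3, slc25a37 and slc25a39 are low in all AMCA-positive libraries, slc25a38b has counts in those alone, and slc25a28 overlaps.

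slc25a38a and slc25a38b carry glycine into mitochondria for the first step of haem synthesis, and neither had enough counts to test. They are named here after their values were seen. slc25a38b had 0.454, 1.99, 1.18, 4.27 and 0.158 CPM in the AMCA-positive libraries and no count in the AMCA-negative ones, which makes it at least 12.1-fold higher in AMCA-positive cells, with the AMCA-negative group set at a floor of 3 counts in all. slc25a38a had 30 counts in AMCA-positive cells, 24 in replicate 3 and 6 in replicate 4, and 1 in AMCA-negative cells. Their few counts thus lay mainly in AMCA-positive libraries. Over all genes, too, a count in all 5 libraries was more common in AMCA-positive cells (66.7%) than in AMCA-negative cells (31.0%).

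Of 19 tested genes of haem and iron-sulphur cluster synthesis and iron uptake, 6 fell and 1 rose, beside 6.56% lower and 16.2% higher over all genes. Among those that fell, alas2 and tfr1a, a gene of iron uptake, are also among the red cell markers counted above. The gene that rose was urod, named after its values were seen, with 490 counts in AMCA-positive cells and 1 in AMCA-negative cells. It too passed the filter on low counts only through AMCA-positive libraries. Without AMCA-positive replicate 1 or AMCA-negative replicate 1 or 2, 2 rose. Besides alas2, isca1, an iron-sulphur assembly protein, averaged 23.7 ± 5.97 CPM in AMCA-positive cells and 161 ± 52.1 CPM in AMCA-negative cells (SD, n = 5 each; log2 fold change -2.78, edgeR adjusted p = 0.000753). fam210b, a mitochondrial protein of red cell development, averaged 16.6 ± 6.56 CPM in AMCA-positive cells and 131 ± 55.7 CPM in AMCA-negative cells (log2 fold change -2.98, edgeR adjusted p = 0.00116). The list's median log2 fold change was -1.03.

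Carriers of ATP, ADP and phosphate had 2 calls, both higher, among 8 tested, where 16.2% of all genes were higher. slc25a25a, a carrier of ATP-magnesium for phosphate that calcium switches on, had 221, 143, 158, 163 and 138 CPM in the AMCA-positive libraries and 41.4, 42.8, 45.8, 102 and 18.6 CPM in the AMCA-negative libraries. The groups did not overlap, and AMCA-negative replicate 4 came nearest to the AMCA-positive range. AMCA-positive cells were 3.30-fold higher, which is 1.72 ± 0.45 on the log2 scale (SE), at an edgeR adjusted p of 0.0185. The call was lost without AMCA-positive replicate 1 (edgeR adjusted p = 0.0539), without AMCA-negative replicates 1 and 3 together (edgeR adjusted p = 0.0832) and on plate 1 or plate 2 alone (edgeR adjusted p = 0.133 and 0.172), with fold changes of 1.91 and 1.47 on the log2 scale.

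slc25a6, slc25a4 and slc25a5 code for ADP/ATP carriers. Reads can match more than a single gene among close relatives, and how the authors' counting treated such reads is not stated. No sequences were compared, and values of these genes and of the other a and b copies are uncertain to that extent. slc25a6 had 6.81, 3.31, 6.06, 7.78 and 1.42 CPM in the AMCA-positive libraries, while in AMCA-negative cells a single count in replicate 1 (0.282 CPM) was all there was. The depth-scaled ratio was 116 with a 95% counting interval from 20.5 to 4595 (edgeR adjusted p = 0.00708). As a share of the slc25a6 and slc25a5 counts it was 0.0751 ± 0.0399% in AMCA-positive cells and 0.00181 ± 0.00406% in AMCA-negative cells (SD, n = 5 each; exact permutation p = 0.00794, 0.0437 adjusted over 11 pairs). Thus slc25a6 was a trace beside slc25a5 in either group. With a single AMCA-negative count, the share only restates the near absence of slc25a6 there and is no second test of it. slc25a6 passed the filter on low counts only through AMCA-positive libraries, so its difference follows from having been tested at all.

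slc25a5 itself had 6053, 6674, 8109, 6725 and 6092 CPM in the AMCA-positive libraries and 3102, 5268, 2990.5, 6172 and 5009 CPM in the AMCA-negative libraries. The ranges met at the AMCA-negative replicate 4 library, which lay above AMCA-positive replicates 1 and 5. The mean of 6730.5 ± 832 CPM in AMCA-positive cells did not differ past the threshold from 4508 ± 1403 CPM in AMCA-negative cells (log2 fold change 0.58 ± 0.21, edgeR adjusted p = 0.0768). It passed as higher under 4 alternatives: DESeq2 scaling, upper quartile scaling, the DESeq2 Wald test and voom. slc25a4 averaged 8.87 ± 6.65 CPM in AMCA-positive cells and 2.53 ± 5.23 CPM in AMCA-negative cells (edgeR adjusted p = 0.383), and passed without AMCA-negative replicate 2.

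slc25a3b, a phosphate carrier, had 295, 398, 573, 460.2 and 356 CPM in the AMCA-positive libraries and 113, 289.9, 264, 259 and 252 CPM in the AMCA-negative libraries. All AMCA-positive libraries were above all AMCA-negative ones, by a small margin at the nearest pair. The difference of 0.82 ± 0.28 (log2 with SE) missed the threshold at an edgeR adjusted p of 0.0589, and passed under 3 alternatives: DESeq2 scaling, the DESeq2 Wald test and without AMCA-negative replicate 2. slc25a3a, its copy, was rare in both groups at 1.04 ± 1.49 CPM in AMCA-positive cells and 0.540 ± 1.06 CPM in AMCA-negative cells (edgeR adjusted p = 0.506). slc25a25b was too rare to test.

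Carriers of pyruvate, citrate and dicarboxylates had 2 higher of 8 tested (16.2% over all genes) and none lower at the adjusted threshold of edgeR, with 3 of the 8 at an unadjusted p under 0.05. slc25a35 and slc25a34 are relatives of the dicarboxylate carriers without a firmly assigned cargo. slc25a35 had 13.02, 13.4, 2.51, 2.59 and 11.2 CPM in the AMCA-positive libraries and 0, 0, 0, 0.188 and 0.200 CPM in the AMCA-negative libraries. Its depth-scaled ratio was 94.7 with a 95% counting interval from 25.98 to 786 (edgeR adjusted p = 0.00829). slc25a34 had 2.27, 1.99, 4.88, 1.83 and 5.68 CPM in the AMCA-positive libraries and a single count, in AMCA-negative replicate 4, in the other group. The ratio for slc25a34 was 75.2, with a counting interval from 13.2 to 2999 (edgeR adjusted p = 0.00604). Both were thus nearly absent from AMCA-negative libraries. They passed the filter on low counts only through AMCA-positive libraries, so their differences follow from having been tested at all. Where these carriers were higher, so were the summed shares of astroglial markers (0.332 to 0.761% in AMCA-positive libraries, 0.0244 to 0.0711% in AMCA-negative ones), of leukocyte markers, and of mural cell and fibroblast markers (0.0630 to 0.143% and 0.00153 to 0.0160% in that order). The part of those cells, and of endothelial and endocrine cells, in the 5 higher carriers was not tested.

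slc25a1a, the citrate carrier, is named after its values were seen. It had 7.42, 6.12, 9.90, 12.2 and 7.73 CPM in the AMCA-positive libraries and 0, 1.54, 0, 0 and 0.798 CPM in the AMCA-negative libraries. Though the groups did not overlap, the log2 fold change of 4.26 ± 1.46 did not pass (edgeR adjusted p = 0.0574). The dicarboxylate carrier slc25a10 averaged 30.3 ± 11.1 CPM in AMCA-positive cells and 13.9 ± 25.3 CPM in AMCA-negative cells (edgeR adjusted p = 0.354), where replicate 2 alone reached 59.1 CPM. slc25a11, the oxoglutarate carrier of the malate-aspartate shuttle, averaged 50.1 ± 16.9 CPM in AMCA-positive cells and 25.4 ± 25.8 CPM in AMCA-negative cells (edgeR adjusted p = 0.587).

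The pyruvate carrier subunits mpc1 and mpc2 pair to make a working carrier. mpc1 averaged 142 ± 57.4 CPM in AMCA-positive cells and 87.4 ± 71.7 CPM in AMCA-negative cells (edgeR adjusted p = 0.262), and mpc2 averaged 149 ± 34.2 CPM and 97.2 ± 71.7 CPM in that order (edgeR adjusted p = 0.664). Of the pair's counts, mpc1 took 47.6 ± 5.11% in AMCA-positive cells and 52.8 ± 33.8% in AMCA-negative cells (SD, n = 5 each; exact permutation p = 0.746, 1 adjusted over 11 pairs). The share of the pair's counts varied little between AMCA-positive libraries and widely between AMCA-negative ones.

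**Figure D3:**
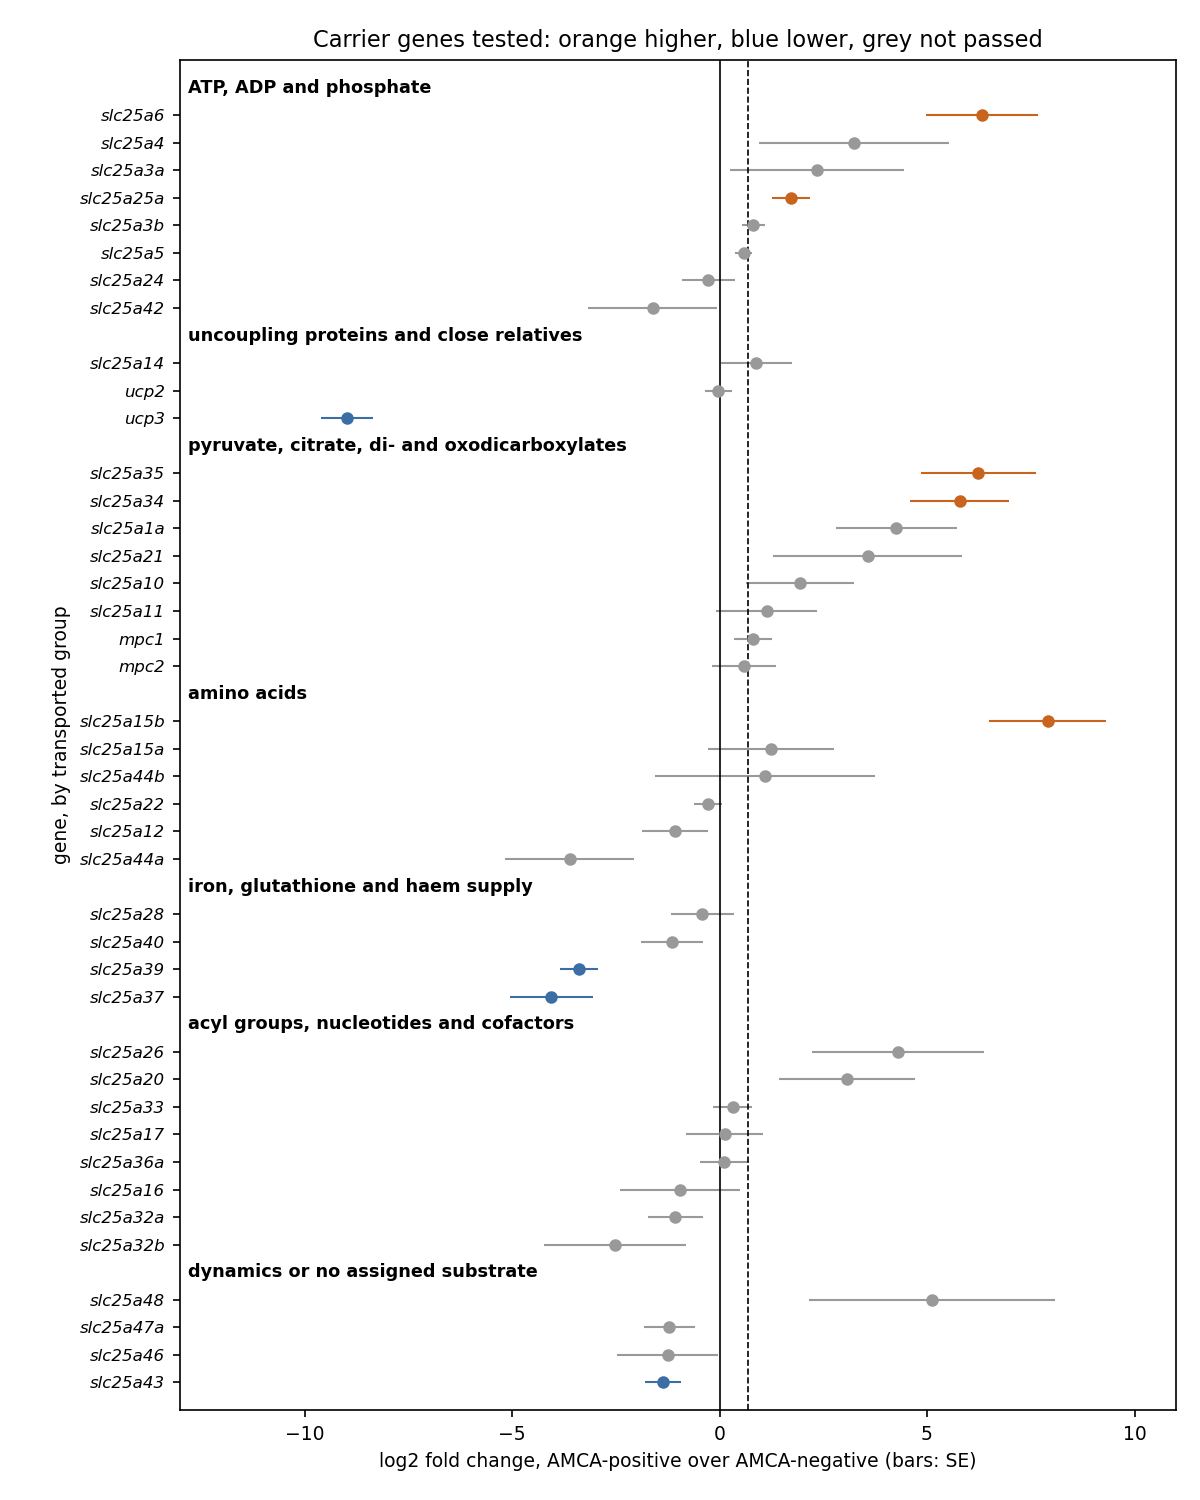
Fitted log2 fold changes, AMCA-positive over AMCA-negative, with SE bars for 41 of the 42 carriers tested, grouped by cargo; orange passed as higher, blue as lower and grey did not pass, and the dashed line is the median over all genes (0.69). Points of slc25a15b, slc25a6, slc25a34 and slc25a35 rest on groups with 0 to 2 counts, so their position depends on the fit's prior count.

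Among carriers of amino acids 1 of 6 tested passed, as higher (16.2% over all genes). slc25a15b, an ornithine carrier of the urea cycle, had 5.90, 2.65, 3.10, 7.63 and 7.89 CPM in the AMCA-positive libraries and no count in any AMCA-negative library. It was at least 40.9-fold higher in AMCA-positive cells, by the same floor (edgeR adjusted p = 0.00753). It passed the filter on low counts only through AMCA-positive libraries, so its difference follows from having been tested at all. Its copy slc25a15a overlapped between the groups, with 1.42 to 21.3 CPM in AMCA-positive libraries and 0 to 22.8 CPM in AMCA-negative ones.

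slc25a22, a glutamate carrier by its deposited name, averaged 313 ± 93.9 CPM in AMCA-positive cells and 390.0 ± 162 CPM in AMCA-negative cells (edgeR adjusted p = 0.651). slc25a12, the aspartate-glutamate carrier, averaged 17.7 ± 5.50 CPM in AMCA-positive cells and 42.5 ± 42.8 CPM in AMCA-negative cells (edgeR adjusted p = 0.41). Neither of these carriers was shown to differ, while the plasma-membrane glutamate transporter slc1a3a was counted in AMCA-positive libraries alone.

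slc25a44a and slc25a44b carry branched-chain amino acids. slc25a44a had 2.88, 1.16, 4.14, 2.44 and 0 CPM in the AMCA-positive libraries and 52.1, 33.2, 35.8, 0 and 21.4 CPM in the AMCA-negative libraries (log2 fold change -3.61 ± 1.55, edgeR adjusted p = 0.128). Its copy slc25a44b had 9.23, 4.80, 9.75, 5.19 and 0.946 CPM in the AMCA-positive libraries and counts in AMCA-negative replicate 4 alone, at 31.6 CPM. In AMCA-negative cells each library thus held counts of a single copy, and which copy differed in replicate 4. The share of slc25a44a in the pair was 21.0 ± 12.7% in AMCA-positive cells and 80.0 ± 44.7% in AMCA-negative cells (exact permutation p = 0.0476, 0.131 adjusted over 11 pairs), and the smallest pair total was 6 counts. Without AMCA-negative replicate 4 both copies passed the edgeR test, slc25a44a as lower and slc25a44b as higher. Leaving out that library removes every AMCA-negative count of slc25a44b, so its call there follows from having been tested at all. The library was also the only AMCA-negative one without slc25a44a counts, so that fit is no separate support for a difference between the copies. Of the 11 pairs, 2 passed after adjustment, both at the smallest p, and 4 had an unadjusted p under 0.05. Of those 2, the slc25a6 pair only restates the near absence of slc25a6 from AMCA-negative libraries.

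**Figure D4:**
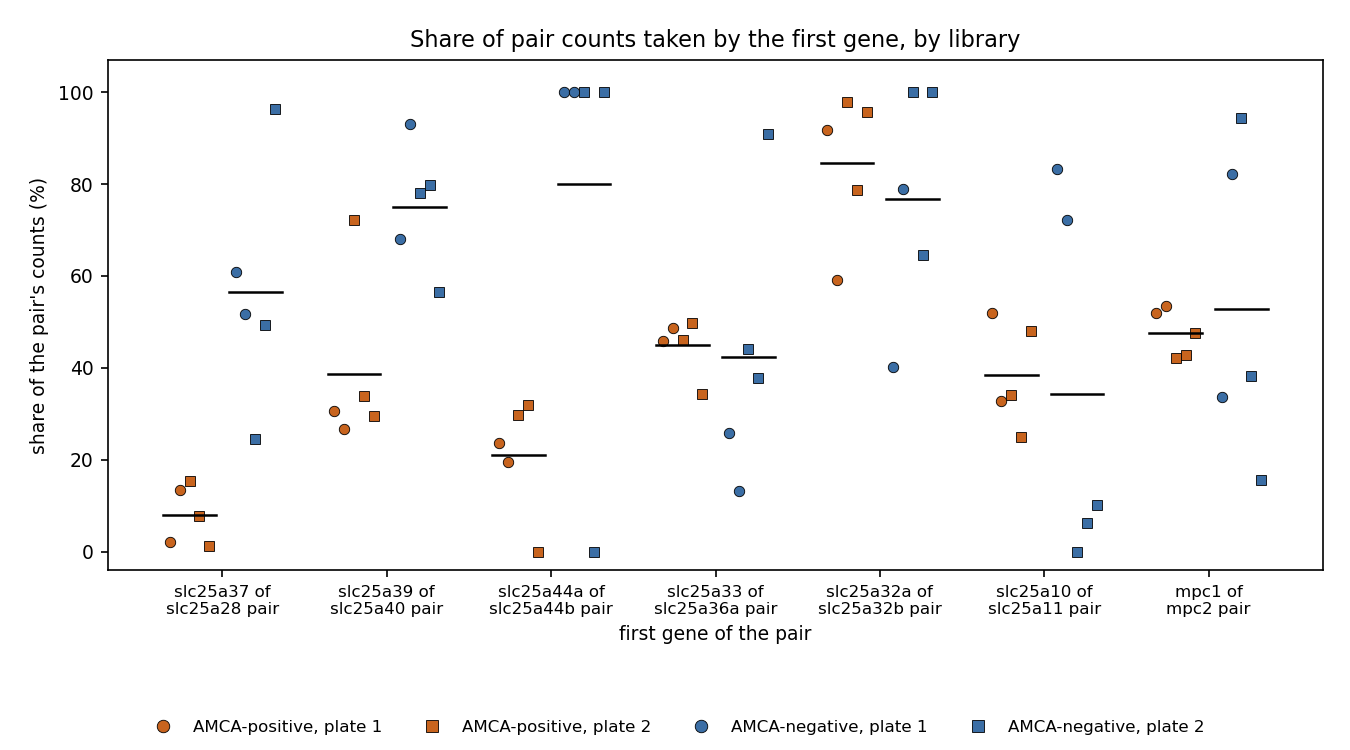
Share (%) of a pair's counts taken by its first gene in each library for 7 of the 11 pairs, with AMCA-positive libraries (orange) left of AMCA-negative ones (blue), circles for plate 1, squares for plate 2 and bars for means. The mitoferrin pair (slc25a37 of slc25a37 and slc25a28) is the pair shown that separates the groups in every library; AMCA-negative shares scatter more in most pairs.

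Carriers of acyl groups, nucleotides and cofactors held no call among 9 tested by edgeR, and none had an unadjusted p under 0.05; 1 of them could not be tested. slc25a36a and slc25a33 carry pyrimidine nucleotides. slc25a36a averaged 118 ± 22.3 CPM in AMCA-positive cells and 141 ± 126 CPM in AMCA-negative cells (edgeR adjusted p = 0.925), where single libraries ran between 11.8 and 335 CPM. slc25a33 averaged 97.5 ± 24.6 CPM in AMCA-positive cells and 77.5 ± 41.9 CPM in AMCA-negative cells (edgeR adjusted p = 0.709). slc25a32a, a folate and flavin carrier, averaged 43.4 ± 32.5 CPM in AMCA-positive cells and 87.1 ± 83.3 CPM in AMCA-negative cells (edgeR adjusted p = 0.307), and its copy slc25a32b 3.68 ± 2.25 CPM and 25.5 ± 34.4 CPM in that order (edgeR adjusted p = 0.361). slc25a20, the acylcarnitine carrier of fatty acid oxidation, named after its values were seen, averaged 31.7 ± 16.1 CPM in AMCA-positive cells and 4.14 ± 6.04 CPM in AMCA-negative cells, but did not pass (log2 fold change 3.07 ± 1.64, edgeR adjusted p = 0.23).

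slc25a43, an orphan member, was the fourth lower call and the least firm. It had 31.6, 34.6, 35.9, 68.4 and 56.5 CPM in the AMCA-positive libraries and 81.6, 86.8, 191, 49.7 and 170 CPM in the AMCA-negative libraries. The groups overlapped at AMCA-negative replicate 4. Its log2 fold change of -1.35 ± 0.43 (SE) passed (edgeR adjusted p = 0.0436), and the call was lost under 18 of 22 alternatives, 9 of the 10 that leave out a library among them, with adjusted p up to 0.313. In the RefSeq order of GRCz12tu slc25a43 follows slc25a5. slc25a47a, a liver carrier in mammals, averaged 17.6 ± 3.82 CPM in AMCA-positive cells and 40.9 ± 12.8 CPM in AMCA-negative cells (edgeR adjusted p = 0.204). slc25a46, an outer-membrane protein of mitochondrial dynamics, averaged 16.3 ± 4.73 CPM in AMCA-positive cells and 39.0 ± 35.5 CPM in AMCA-negative cells (edgeR adjusted p = 0.546).

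The remaining untested carriers were slc25a29, slc25a47b, slc25a24l, slc25a23b and slc25a51a, each with at most 22 counts over a group. slc25a23b and slc25a51a had no count in AMCA-positive cells and 1 in AMCA-negative cells. slc25a16, slc25a17, slc25a21, slc25a24, slc25a26, slc25a42 and slc25a48 were tested, overlapped between the groups and had edgeR adjusted p from 0.178 to 0.949.

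Carrier levels varied more between AMCA-negative than between AMCA-positive libraries. Over the 41 tested carriers with a count in both groups, the median coefficient of variation was 41.8% in AMCA-positive cells and 95.6% in AMCA-negative cells, and 37 were wider in AMCA-negative cells. This is a description over genes that share libraries, and no such median was taken over all genes. Over all genes, a count in all 5 libraries was present for 66.7% in AMCA-positive cells and 31.0% in AMCA-negative cells. Carriers counted in 1 AMCA-negative library alone, such as slc25a21 and slc25a26, have 224% there by construction. Whether the wider spread is particular to carriers was not tested. Whether the group difference itself differs between plates could not be settled with 2 and 3 libraries per group and plate: 0 of 44 carriers passed edgeR's interaction test, 2 had an unadjusted p under 0.05, and 0 of all 11150 genes passed.

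**Figure D5:**
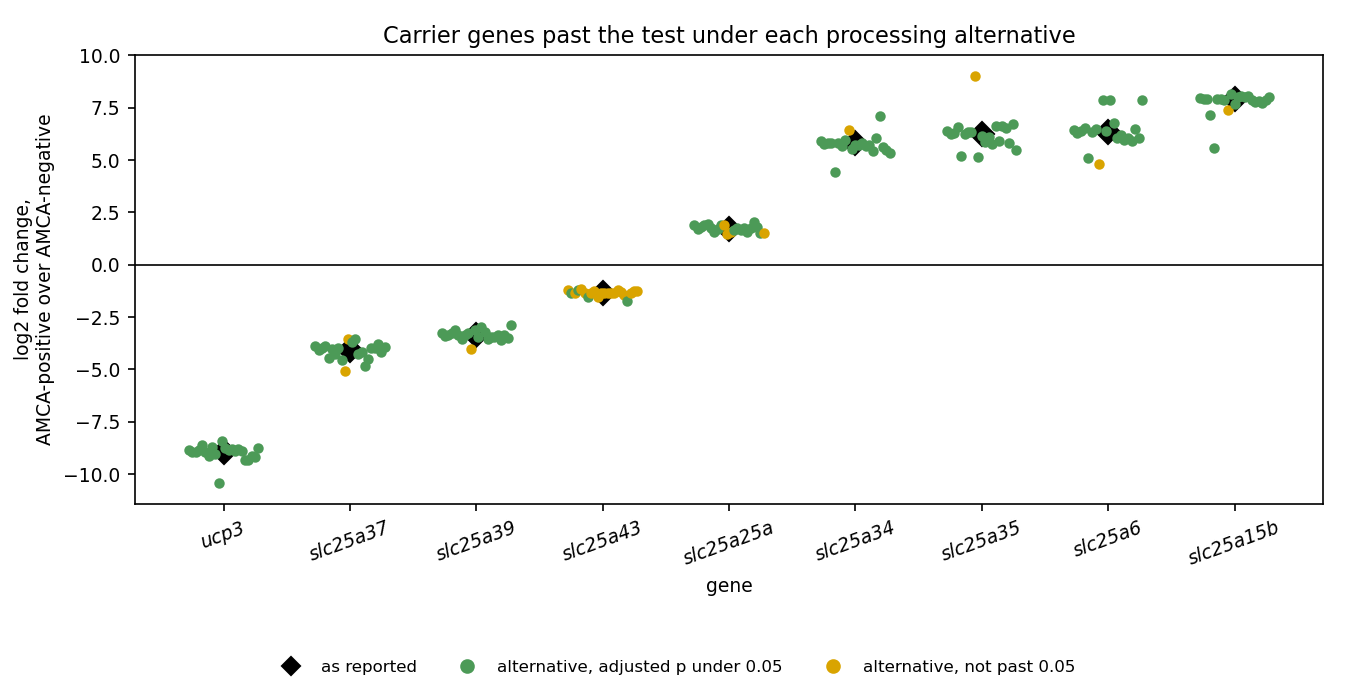
Log2 fold change, AMCA-positive over AMCA-negative, of the 9 carriers past the test, as reported (black diamonds) and under each processing alternative (green where the adjusted p was under 0.05, yellow where not). ucp3 stays green throughout, slc25a43 is mostly yellow, and no point changes sign.

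Beyond the haem genes, 86 genes of 4 further lists give the setting in which carriers work. Over all 5 lists 10 of 105 tested genes were higher and 9 lower (16.2% and 6.56% over all genes); 6 were higher without AMCA-positive replicate 2, 3, 4 or 5 or AMCA-negative replicate 3. Enzymes of the shuttles and the tricarboxylic acid cycle had 5 of 34 higher, near the 16.2% over all genes, and none lower by edgeR, a count that fell to 2 without AMCA-positive replicate 2, 3, 4 or 5 and to 3 without AMCA-positive replicate 1 or AMCA-negative replicate 3, and was 8 without AMCA-negative replicate 4. mdh1aa, a cytosolic malate dehydrogenase, averaged 337 ± 53.6 CPM in AMCA-positive cells and 95.7 ± 64.3 CPM in AMCA-negative cells (SD, n = 5 each; log2 fold change 1.81, edgeR adjusted p = 0.0126), and idh3a, an isocitrate dehydrogenase subunit, 159 ± 44.9 CPM and 65.6 ± 22.9 CPM in that order (log2 fold change 1.26, edgeR adjusted p = 0.0279). The mdh1aa call was lost on plate 1 or plate 2 alone (edgeR adjusted p = 0.134 and 0.119), as was the idh3a call (0.284 and 0.158). The idh3a call was also lost without AMCA-positive replicate 2, 3, 4 or 5 or AMCA-negative replicate 4, with edgeR adjusted p up to 0.0824. dlat, of the pyruvate dehydrogenase complex, averaged 13.9 ± 3.74 CPM in AMCA-positive cells and 0.338 ± 0.755 CPM in AMCA-negative cells (edgeR adjusted p = 0.0193). Its AMCA-negative counts were all in replicate 1. It passed the filter on low counts only through AMCA-positive libraries, so its difference follows from having been tested at all.

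Fatty acid oxidation genes had 2 higher and 1 lower of 21, no more than the 16.2% and 6.56% over all genes, with 1 higher without AMCA-negative replicate 3 or 4 and 4 without replicate 5. cpt1b, which makes the acylcarnitine that slc25a20 carries, averaged 12.4 ± 5.03 CPM in AMCA-positive cells and 0.169 ± 0.378 CPM in AMCA-negative cells (edgeR adjusted p = 0.0106). The carnitine acetyltransferase copies were called in opposite directions. cratb averaged 12.7 ± 3.74 CPM in AMCA-positive cells and 0.338 ± 0.755 CPM in AMCA-negative cells (edgeR adjusted p = 0.0237). crata averaged 25.4 ± 6.39 CPM and 116 ± 104 CPM in that order (edgeR adjusted p = 0.0443). Both cpt1b and cratb had AMCA-negative counts in replicate 1 alone. They passed the filter on low counts only through AMCA-positive libraries, so their differences follow from having been tested at all. The crata call was lost in 8 of 10 fits that leave out a library (edgeR adjusted p up to 0.159), and the cratb call without AMCA-negative replicate 3 or 4 (up to 0.0552).

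Import machinery, which inserts carriers into the membrane, was listed together with the outer-membrane pores vdac1, vdac2 and vdac3. This list had 1 higher, a pore, and 1 lower of 21 (again 16.2% and 6.56% over all genes), with 2 higher without AMCA-negative replicate 4. vdac3, an outer-membrane pore, averaged 180 ± 45.7 CPM in AMCA-positive cells and 52.0 ± 34.2 CPM in AMCA-negative cells (log2 fold change 1.87, edgeR adjusted p = 0.0163), a call lost without AMCA-negative replicate 3 (edgeR adjusted p = 0.0611). tomm5, a small subunit of the outer-membrane import pore, averaged 155 ± 29.8 CPM in AMCA-positive cells and 460.1 ± 221 CPM in AMCA-negative cells (log2 fold change -1.51, edgeR adjusted p = 0.00358). Regulators and calcium uptake genes had 1 higher and 1 lower of 10, beside the same background: tfam, which packages mitochondrial DNA, averaged 51.7 ± 13.1 CPM in AMCA-positive cells and 165 ± 32.9 CPM in AMCA-negative cells (log2 fold change -1.68, edgeR adjusted p = 0.00345), and the nuclear receptor esrra 3.44 ± 1.99 CPM and 0.230 ± 0.249 CPM in that order (edgeR adjusted p = 0.042). esrra passed the filter on low counts only through AMCA-positive libraries, so its difference follows from having been tested at all. The esrra call was lost in 9 of 10 fits that leave out a library (edgeR adjusted p up to 0.108), and 2 were lower without AMCA-negative replicate 2.

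The authors' deposited table, made from the same libraries, gives 9 of 46 carriers with an adjusted p as higher and 6 as lower (22.3% and 8.31% over the 11270 genes with an adjusted p). All 5 higher carriers here and 3 of the 4 lower ones, slc25a43 apart, are called there in the same direction. The authors' deposited table also calls slc25a5, slc25a3b, slc25a1a and slc25a38b higher, and slc25a44a and slc25a47a are among its further lower carriers.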

How the data were processed

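RNA was sequenced from sorted zebrafish pituitary cells, and groups were taken from the dye label. The authors deposited gene counts. A signal they deposited, called normalized, is the count divided by 1 factor per library and was not used. The authors' deposited log2 fold changes, scores (a test statistic and group means) and p-values compare the same groups; only their calls were set beside those here. The submitters' processing notes list danRer10 and the tools cutadapt, HTSeq, TopHat2 2.0.13 and DESeq2 without saying what each did; annotation and strand setting are not stated there. Per the labels' protocols, cDNA was amplified for 15 cycles, so reads are not independent molecules, and intervals and floors cover counting error only.

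The whole count table was fitted in edgeR 4.0.16 (R 4.3.3) with plate and group as terms, TMM scaling and filterByExpr; the quasi-likelihood F test was robust and two-sided, with p-values adjusted by Benjamini-Hochberg at 0.05. CPM uses TMM-adjusted totals. SE is the size of the log2 fold change over the root of F. A group at 0 was given a floor of 3 counts in all. Pair shares were tested by exact permutation (scipy 1.17.1). The scripts were tested on simulated data. Nothing says that replicate numbers pair libraries. The fit had no term for pool, so p-values measure the spread between these libraries, taken as independent. Alternatives were other scalings, tools (DESeq2 1.42.0, limma 3.58.1), filters, plate terms and left-out libraries. Members and lists were chosen with earlier results of these data known. Named genes were every carrier called, the 2 most abundant uncalled carriers per cargo group, members of pairs, and up to 3 called genes of lowest adjusted p per list. Any other carrier, and urod, was named outside that rule. No sequence is shown, and 1 tested carrier is counted in the totals but not reported here.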

Additional observations from a re-analysis of the deposited data

Results flagged for a closer look

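Single libraries stood far from the other 4 of their group for 13 carrier levels, 6 pair shares and the red cell share. The criterion was Dixon's ratio above 0.71, which chance alone passes in about 1 of 20 groups (5%) for values without ties, and up to 98 groups were looked at. Where the other 4 libraries tie, at 0 or 100%, the ratio is 1 by construction and the 5% does not hold. That is so for the flags of slc25a34, slc25a6, slc25a25b and slc25a44b and of the slc25a6, slc25a25a and slc25a44a shares. The number of flags is therefore not to be read against that rate. No cause was tested.

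In AMCA-positive cells, slc25a22 had 478 CPM in replicate 3, against 289 CPM in the next library. ucp2 had 2095 CPM in replicate 4, where the next had 956 CPM, and slc25a32b had 7.63 CPM there, where the next had 3.00 CPM. The slc25a39 share of its pair with slc25a40 was 72.1% in replicate 3 and at most 34.0% elsewhere, and the slc25a33 share of its pair with slc25a36a was 34.3% in replicate 5 and at least 45.9% elsewhere.

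In AMCA-negative cells, replicate 2 held 59.1 CPM of slc25a10 (next 5.79), 11.9 CPM of slc25a4 (next 0.798) and 2.42 CPM of slc25a3a (next 0.282), and its slc25a4 share of the slc25a4 and slc25a5 counts was 0.225%. Replicate 3 held 652 CPM of ucp3 (next 327), 234 CPM of slc25a32a (next 70.6) and a red cell share of 25.0% (next 15.8%). Replicate 1 was low in slc25a3b, at 113 CPM with 252 CPM next. Its 0.282 CPM of slc25a6, a share of 0.00907%, stood against 0 elsewhere. Replicate 4 held 31.6 CPM of slc25a44b and 0.188 CPM of slc25a34, both 0 elsewhere, and a slc25a44a share of 0%, against 100% elsewhere. Replicate 5 held 3.39 CPM of slc25a25b, 0 elsewhere, and so a slc25a25a share of 84.5%.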

How the results depend on the processing

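ucp3 passed under all 22 alternatives. slc25a15b, slc25a34, slc25a35, slc25a6 and slc25a39 lost their call on plate 1 alone, and slc25a37 on either plate alone. DESeq2 scaling moved the median log2 fold change of all genes to 0.85, a shift that raised most carriers alike. The number of higher carriers was 8 with DESeq2 scaling, 12 with the DESeq2 Wald test, 10 with voom, 1 with 10 CPM required in 5 libraries, 0 on plate 1 alone and 4 to 9 with a library left out; lower carriers were 1 on plate 1 and 2 on plate 2. All genes higher numbered 2711 (DESeq2 Wald), 676 (strict filter) and 29 (plate 1); lower, 34 on plate 1. Companion genes higher numbered 24 (DESeq2 Wald), 28 (voom), 3 (strict filter), 0 (plate 1) and 6 to 13 with a library left out; lower, 1 on plate 1. Fewer libraries or genes are tested by construction on 1 plate or with the strict filter; other causes were not tested.

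With neighbouring wells as a replicate block, 5 carriers were higher and 3 lower, and 438 of all genes lower. Log2 levels, as deviations from the group mean of each gene, were correlated between AMCA-positive and AMCA-negative libraries. Libraries of neighbouring wells correlated at 0.002 to 0.042, and 2 of 5 AMCA-positive ones best with their neighbour. Whether neighbouring wells share a pool remains unknown. Under the block slc25a28 turned to 0.031.

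Uncalled carriers changed sign on the log2 scale. ucp2 gave 0.12 with either DESeq2 setting, 0.010 with upper quartile scaling, 0.25 on plate 2 and -0.49 to 0.10 with a library left out. With voom, slc25a28 gave 0.65, slc25a32b 0.38 and slc25a46 0.20. slc25a36a gave -0.062 with the strict filter, -0.25 without plate, -1.27 on plate 1 and -0.29 to 0.41 with a library left out. slc25a44b gave -0.082 without plate, -0.99 on plate 2, -0.50 without AMCA-negative replicates 1 and 3, and -0.014 to 8.01 with 1 left out. On plate 1 slc25a3a gave -0.57 and slc25a4 -0.52. With a library left out slc25a32b ranged from -3.17 to 0.37 and slc25a33 from -0.0023 to 0.62.

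Pair differences in percentage points, on plates 1 and 2, were -48.6 and -48.6 for slc25a37 and 0.0765 and 0.0712 for slc25a6, too few libraries to pass. With a library left out they were -56.6 to -38.7 and 0.0632 to 0.0862, and neither passed over 11 pairs. With 4 libraries against 5, a pass would have needed several pairs tied at the smallest p. On plate 1 slc25a3a gave -0.289, slc25a4 -0.0440, slc25a10 -35.4 and slc25a25a -0.172; on plate 2 slc25a33 gave -14.2. As log2 ratios slc25a3a gave -0.60 and slc25a32a -1.24. With a library left out, slc25a3a ranged from -0.0908 to 0.176, slc25a33 from -4.68 to 14.7, slc25a32a from -1.24 to 14.3, mpc1 from -14.5 to 5.21, slc25a10 from -4.56 to 16.3 and slc25a25a from -0.166 to 3.70.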
